A study of Bos taurus with 6 samples.

Results

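Glycolysis, glucose transport and the pentose phosphate pathway were followed through 32 genes in bovine (Bos taurus) embryos at the late morula stage. The genes were taken by symbol from the table of scaled counts, where all 32 of 15314 named genes were found, and 31 had a mean scaled count of 10 or more, as had 12070 genes in all. SLC16A3, a lactate exporter, was below that mean and was not tested. They comprise 4 sugar and lactate transporters, 9 genes of the first, energy-consuming steps of glycolysis, 3 regulatory PFKFB enzymes, 6 genes of the energy-yielding steps, 6 genes that decide between lactate and mitochondrial pyruvate use, 3 pentose phosphate enzymes and the transcription factor HIF1A.

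All embryos had been produced by in vitro fertilization and were collected on day 6. Control embryos had been injected with a nonspecific small interfering RNA (siRNA). The other groups were knockdowns of NOTCH1, a cell surface receptor for ligands on neighbouring cells, and of RBPJ, the DNA-binding protein that carries the signal of NOTCH receptors to their target genes. The labels do not name the reagents of the knockdowns. Each group had 2 libraries of polyadenylated RNA from pools of 15 whole embryos, and every group, the control included, had received spike-ins of GFP and RFP messenger RNA ahead of RNA isolation (not analysed here). The comparisons ask which transcripts differ when either component is reduced. A pool holds outer and inner cells together, and fewer cells of a type or less RNA per cell cannot be told apart in it.

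Glycolysis splits glucose into pyruvate in the cytosol. Glucose enters through SLC2A transporters, is trapped by hexokinases, and passes the committed step at phosphofructokinase, whose activator fructose 2,6-bisphosphate is made and removed by PFKFB enzymes. Pyruvate is then reduced to lactate or is used inside the mitochondrion by the pyruvate dehydrogenase complex. The pentose phosphate pathway diverts glucose 6-phosphate to NADPH and ribose. Cleavage-stage embryos are known for relying on pyruvate and lactate, and glucose use is known to increase around compaction and blastocyst formation.

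The deposited values are counts scaled by the authors, with totals of 10365700 to 10815600 per library and an approximate depth of 9620000 to 13700000 reads. Values are given for replicate 1 and then replicate 2, and 3 pairs without group names are in the order control, NOTCH1 knockdown, RBPJ knockdown. RBPJ stood at 447 and 391 in the control, 361 and 399.6 in the NOTCH1 knockdown and 121 and 94.5 in the RBPJ knockdown, and NOTCH1 at 69.6 and 139.8, then 48.0 and 49.5, then 50.0 and 125. RBPJ was lower in the RBPJ knockdown by limma, with a log2 fold change of -1.96 and an adjusted p of 0.00143. NOTCH1 was below both control values in each NOTCH1 knockdown library, but its fitted fold of 0.499 missed the threshold (limma, adjusted p = 0.634). Morula and early lineage markers (8 of 9 listed, SOX2 not analysed here) were present in all libraries, with POU5F1 at 10911 to 12942 and CDH1 at 10154.5 to 12325. Their summed scaled count was 42722 to 45132 in the control, 48746 to 56385 in the NOTCH1 knockdown and 40120 to 51465 in the RBPJ knockdown. Oocyte and maternal markers (10 of 10) summed to 507 to 774 in the control, 206 to 445 in the NOTCH1 knockdown and 274 to 476 in the RBPJ knockdown, lower in every knockdown library than in either control library. Cumulus, granulosa and fibroblast markers (11 of 13) summed to 721 to 848, 714 to 824 and 827 to 840 in the same order, and blood and immune markers (8 of 8) to 2258 to 3253, 1994 to 2470 and 2356 to 2898, most of it from HBA and CSF1R. No marker was at 0 in both libraries of a group. By sign, 10 of 10 oocyte and maternal markers were lower in the NOTCH1 knockdown (median log2 fold change -0.75) and 9 of 10 in the RBPJ knockdown (median -0.85), and 7 of 8 morula markers were higher in the NOTCH1 knockdown and 4 of 8 in the RBPJ knockdown. The part of these markers in the results on either knockdown was not tested.

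In the NOTCH1 knockdown SLC2A1, SLC2A3, HK1, HK2 and LDHA had higher values in each library than in either control library. PFKFB3, PFKFB2, HIF1A, PDK1 and TALDO1 had lower ones. In all, 11 of the 31 genes were higher and 5 lower without overlap, against 18.6% and 17.2% of all genes. The glucose transporter SLC2A4, outside the list, was lower in both NOTCH1 knockdown libraries. The differences of SLC2A1, SLC2A3, HK1, HK2 and LDHA were 1.16-fold to 1.50-fold upward, and PFKFB3 stood at 0.530 of the control mean. None of the 31 genes passed limma at an adjusted p below 0.05 over all 12070 genes in this comparison, in the RBPJ knockdown against the control or between the knockdowns, nor in the test for any difference among the 3 groups. Over all genes 0%, 0.00829%, 0.00829% and 0.00829% were called, the last 3 being RBPJ itself. At an unadjusted p below 0.05, 6 of the 31 genes differed in the NOTCH1 knockdown (5 higher, 1 lower), against 7.29% of all genes (4.57% higher, 2.73% lower). In the RBPJ knockdown 1 did, a higher one, against 4.34% of all genes (2.83% higher, 1.52% lower). Between the knockdowns 4 did, 2 higher and 2 lower in the NOTCH1 knockdown, against 3.64% of all genes (1.81% higher, 1.83% lower). In the 3-group test PFKFB3, LDHA and SLC2A3 lay below an unadjusted p of 0.05, against 5.34% of all genes.

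The 32 genes together held a scaled count of 111077 and 109836 in the control, 122240 and 116986 in the NOTCH1 knockdown and 113396 and 107304 in the RBPJ knockdown. These sums were 1.07% and 1.05%, 1.13% and 1.10%, and 1.08% and 1.03% of the library totals, highest in both NOTCH1 knockdown libraries. Without SLC2A3 the sums were 91877 and 90491, then 100822 and 93606, then 94340 and 88962, and replicate 2 of the NOTCH1 knockdown then lay below replicate 1 of the RBPJ knockdown. The median log2 fold change of the 31 genes was 0.05 in the NOTCH1 knockdown (0.01 over all genes), 0.02 in the RBPJ knockdown (-0.00 over all genes) and 0.05 between the knockdowns (0.01 over all genes). By sign, 20 of 31 were higher and 11 lower in the NOTCH1 knockdown, where 51.1% of all genes were higher. In the RBPJ knockdown 16 of 31 were higher, against 49.7% of all genes, and between the knockdowns 17 of 31, against 52.7%. The split in the NOTCH1 knockdown was 16 higher and 15 lower with libraries scaled to equal totals, where 42.5% of all genes were higher. After quantile normalization it was 15 higher and 16 lower, where 48.7% of all genes were higher. The signs of PFKM, ENO1, LDHB, PDHA1, PDHB and TKT changed among the scalings, and those of the other 25 did not. Between the knockdowns GPI and TKT changed sign, and in the RBPJ knockdown none did.

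**Figure D1:**
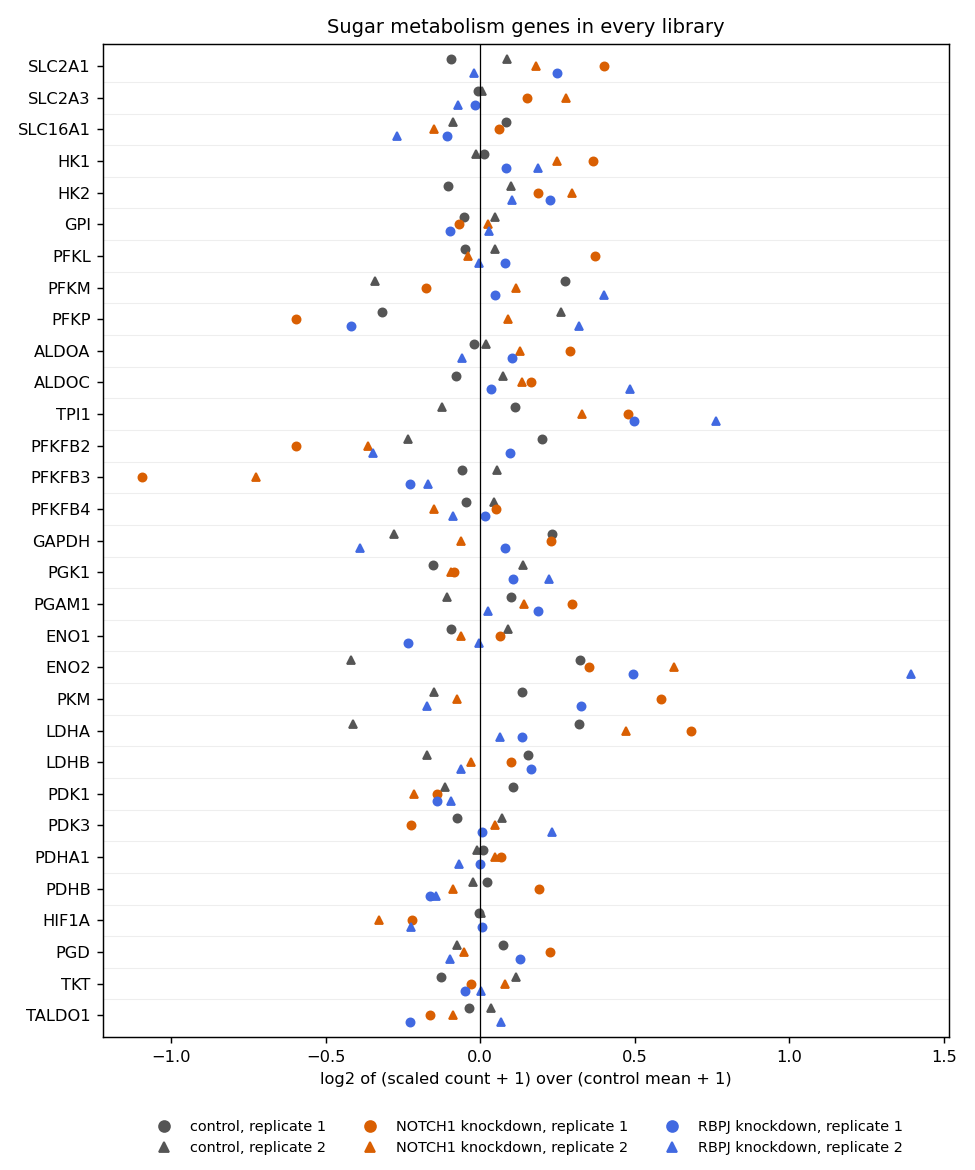
Scaled count of each of the 31 tested genes in every library, as log2 of (value + 1) over (control mean + 1) on the horizontal axis. Grey points are control, orange NOTCH1 knockdown and blue RBPJ knockdown libraries, with circles for replicate 1 and triangles for replicate 2. Both NOTCH1 knockdown points of SLC2A3, HK1 and LDHA lie right of all other libraries, and both of PFKFB3 lie left of them.

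Glucose transporters came first in the pathway. SLC2A1 (GLUT1), a widely expressed glucose carrier, had 3276 and 3712 in the control, 4611 and 3964 in the NOTCH1 knockdown and 4149 and 3449.9 in the RBPJ knockdown. The NOTCH1 knockdown did not overlap the control, with a log2 fold change of 0.29 ± 0.12 (SE; limma, unadjusted p = 0.0327, adjusted p = 0.634), while the RBPJ knockdown overlapped the control. That value was 0.18 without replicate 1 of the NOTCH1 knockdown. SLC2A3 (GLUT3), a carrier of high glucose affinity, had 19200.1 and 19345 in the control, 21418 and 23379 in the NOTCH1 knockdown and 19056 and 18342 in the RBPJ knockdown. Both NOTCH1 knockdown libraries were above the other 4. Against the RBPJ knockdown the log2 fold change was 0.26 ± 0.10 (SE; limma, unadjusted p = 0.0184, adjusted p = 0.999), and against the control the unadjusted limma p was 0.0428.

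The monocarboxylate transporters move lactate and pyruvate across the plasma membrane. SLC16A1 (MCT1) had 4132 and 3666 in the control, 4065 and 3515 in the NOTCH1 knockdown and 3618 and 3236 in the RBPJ knockdown. It was thus lower in both RBPJ knockdown libraries than in either control library, by a log2 fold change of -0.19 ± 0.11 (SE; limma, unadjusted p = 0.127, adjusted p = 0.983), and by -0.10 without replicate 1 of the control. SLC16A3 (MCT4) had 6.34 and 1.09, then 10.2 and 8.61, then 6.92 and 6.16 in the same order, values of few reads. The summed count of the 2 SLC2A genes was 22476 and 23056 in the control, 26029.5 and 27343 in the NOTCH1 knockdown and 23206 and 21791 in the RBPJ knockdown, with most of it from SLC2A3.

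Hexokinases phosphorylate glucose on entry. HK1 had 1128 and 1109 in the control, 1440 and 1329 in the NOTCH1 knockdown and 1184 and 1275 in the RBPJ knockdown, so that the 3 groups did not overlap and the RBPJ knockdown lay between the others. Against the control its log2 fold change in the NOTCH1 knockdown was 0.31 ± 0.11 (SE; limma, unadjusted p = 0.017, adjusted p = 0.566). HK2, the hexokinase that responds to growth signals and hypoxia in many tissues, had 3797 and 4374 in the control, 4652 and 5024 in the NOTCH1 knockdown and 4784 and 4391 in the RBPJ knockdown. All 4 knockdown libraries were above both control libraries. Its log2 fold change was 0.25 ± 0.11 (SE) in the NOTCH1 knockdown (limma, unadjusted p = 0.0393, adjusted p = 0.656) and 0.17 ± 0.11 in the RBPJ knockdown (limma, unadjusted p = 0.138, adjusted p = 0.983). Without replicate 1 of the control the HK2 values were 0.14 and 0.07.

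GPI, which converts glucose 6-phosphate to fructose 6-phosphate, varied little, from 6769 to 7488 over the 6 libraries. Its 95% interval against the control was -0.23 to 0.19 in the NOTCH1 knockdown and -0.25 to 0.18 in the RBPJ knockdown on the log2 scale. Of the phosphofructokinase subunits, PFKL (liver type) had 723 and 774 in the control, 969 and 728 in the NOTCH1 knockdown and 792 and 747 in the RBPJ knockdown, with replicate 1 of the NOTCH1 knockdown apart from the other 5. PFKM (muscle type) had 163 and 106, then 119 and 146, then 139.7 and 178, and the 2 controls bracketed 3 of the 4 knockdown libraries. PFKP (platelet type) had 61.1 and 91.7, then 50.2 and 81.3, then 57.0 and 95.5, where replicate 2 was above replicate 1 in every group.

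Aldolases cut the 6-carbon sugar in the next step. ALDOA had 6651 and 6842 in the control, 8252 and 7378 in the NOTCH1 knockdown and 7251 and 6484 in the RBPJ knockdown, and both NOTCH1 knockdown libraries were above the other 4. Between the knockdowns its log2 fold change was 0.19 ± 0.10 (SE; limma, unadjusted p = 0.0929, adjusted p = 0.999), and 0.11 without replicate 1 of the NOTCH1 knockdown or replicate 2 of the RBPJ knockdown. ALDOC had 748 and 832, then 885 and 867, then 810.2 and 1106 in the same order, with replicate 2 of the RBPJ knockdown the highest. Its log2 fold change in the RBPJ knockdown was 0.26 ± 0.15 (SE; limma, unadjusted p = 0.102, adjusted p = 0.983) and was 0.04 without that library.

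TPI1, which interconverts the 2 triose phosphates, had 59.2 and 50.1 in the control, 76.6 and 68.9 in the NOTCH1 knockdown and 77.6 and 93.4 in the RBPJ knockdown. All 4 knockdown libraries were above both controls, with the RBPJ knockdown highest. The log2 fold change in the RBPJ knockdown was 0.64 ± 0.27 (SE; limma, unadjusted p = 0.0339, adjusted p = 0.983), and it ran from 0.50 to 0.77 over omitted libraries. TPI1, GAPDH, ENO1, PGK1 and LDHA have processed copies in mammalian genomes, and no source used here gives how reads of such copies were divided, so their values are uncertain to that extent. The library kit is named without a strand option, and overlapping or antisense genes can share reads too.

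PFKFB enzymes set the level of the phosphofructokinase activator. All 3 tested ones had negative fitted values in both knockdowns, which share the control libraries. Of all genes, 51.1% were higher in the NOTCH1 knockdown and 49.7% in the RBPJ knockdown. The log2 fold changes of PFKFB4 were small, at -0.05 in the NOTCH1 knockdown and -0.03 in the RBPJ knockdown. PFKFB3, the form with the strongest kinase activity, had 62.8 and 68.0 in the control, 30.1 and 39.2 in the NOTCH1 knockdown and 55.7 and 58.1 in the RBPJ knockdown. The 3 groups did not overlap. The log2 fold change in the NOTCH1 knockdown was -0.91 ± 0.30 (SE; limma, unadjusted p = 0.0102, adjusted p = 0.51), and that between the knockdowns was -0.71 ± 0.30 (SE; limma, unadjusted p = 0.0344, adjusted p = 0.999). Over omitted libraries the value in the NOTCH1 knockdown ran from -1.09 to -0.72.

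PFKFB2, the heart form of the enzyme, had 140.5 and 104 in the control, 80.4 and 94.7 in the NOTCH1 knockdown and 131 and 95.7 in the RBPJ knockdown, where both NOTCH1 knockdown libraries were the lowest of the 6. PFKFB4, a testis and tumour form, had 1665 and 1776, then 1783 and 1552, then 1739.6 and 1619, with all groups overlapping. PFKFB4 had a 95% interval of -0.29 to 0.20 on the log2 scale in the NOTCH1 knockdown, while that of PFKFB3 was -1.56 to -0.26.

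**Figure D2:**
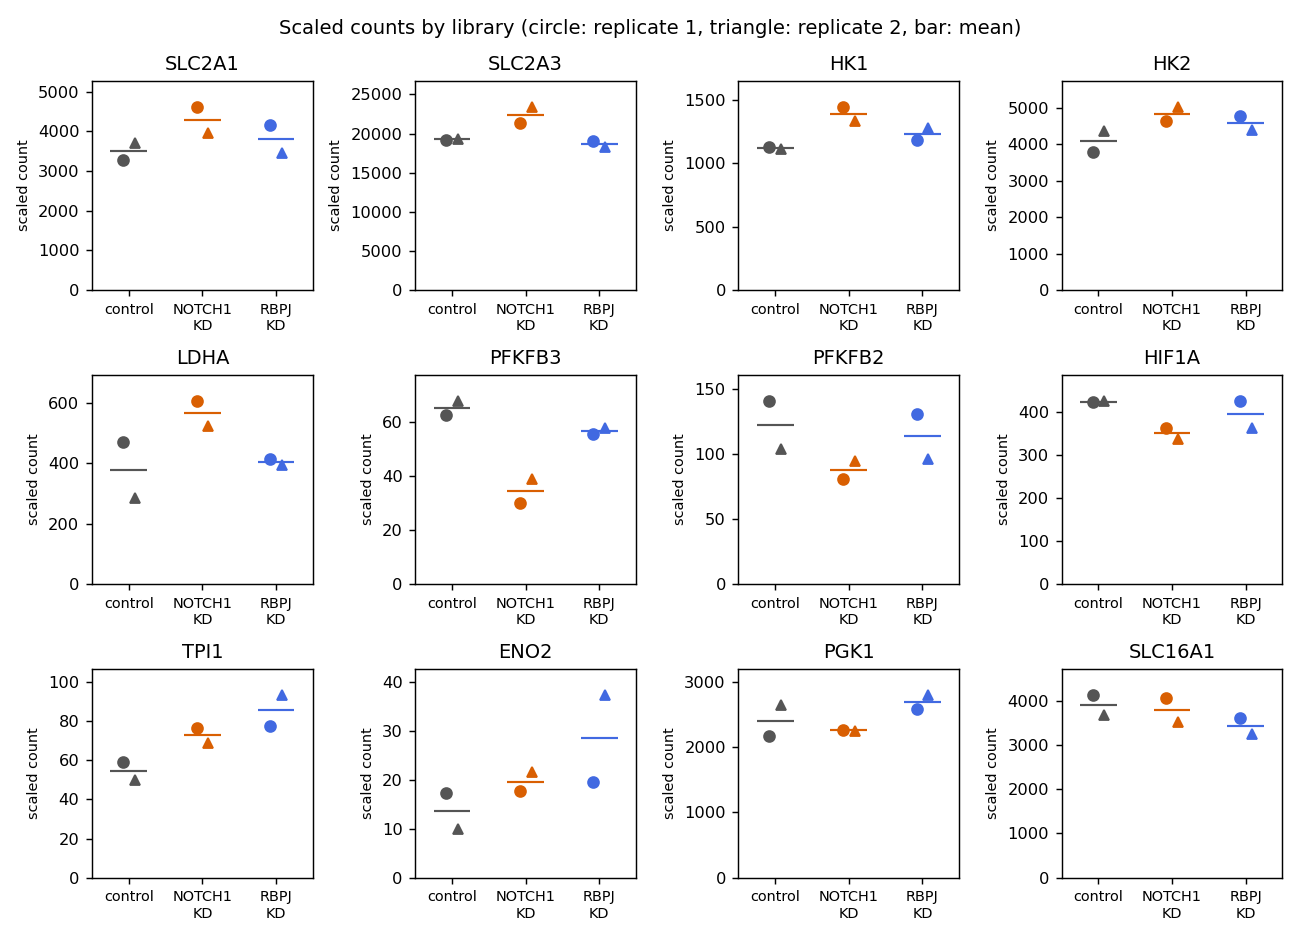
Scaled count per library of 12 genes on a linear axis from 0. Circles are replicate 1, triangles replicate 2 and bars the mean of the 2 libraries in the control (grey), NOTCH1 knockdown (orange) and RBPJ knockdown (blue). PFKFB3 is at 30.1 and 39.2 in the NOTCH1 knockdown, below the other 4 libraries, and LDHA at 606 and 523, above them.

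The energy-yielding steps begin with GAPDH. It had 8920.3 and 6259.5 in the control, 8901 and 7267 in the NOTCH1 knockdown and 8022 and 5800 in the RBPJ knockdown, so that replicates within a group differed more than the group means did. PGK1, which makes the first ATP of the pathway, had 2165 and 2644, then 2266 and 2253, then 2589.6 and 2804 in the same order. Both NOTCH1 knockdown libraries were below both RBPJ knockdown libraries and within the range of the control. Between the knockdowns its log2 fold change was -0.25 ± 0.12 (SE; limma, unadjusted p = 0.048, adjusted p = 0.999).

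PGAM1, phosphoglycerate mutase, had 10042 and 8701 in the control, 11508 and 10341 in the NOTCH1 knockdown and 10671 and 9543 in the RBPJ knockdown, with both NOTCH1 knockdown libraries above both controls. ENO1, the common enolase, had 1005 and 1142, then 1121 and 1028, then 912 and 1072, and its 95% interval in the NOTCH1 knockdown was -0.27 to 0.28 on the log2 scale. ENO2, the neuronal enolase, was a low transcript with 17.3 and 9.95, then 17.7 and 21.6, then 19.6 and 37.4, higher in all 4 knockdown libraries than in the controls. The highest of them, replicate 2 of the RBPJ knockdown, stood apart. For ENO2 the log2 fold change in the RBPJ knockdown was 0.99 ± 0.49 (SE; limma, unadjusted p = 0.0649, adjusted p = 0.983), and 0.54 without that library. PKM, pyruvate kinase, had 4455 and 3650.4 in the control, 6081 and 3844 in the NOTCH1 knockdown and 5083 and 3597 in the RBPJ knockdown, with replicate 1 the higher in each group and all groups overlapping.

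Lactate dehydrogenase exchanges pyruvate and lactate. LDHA, the subunit that predominates in glycolytic tissue, had 470.2 and 283 in the control, 606 and 523 in the NOTCH1 knockdown and 414 and 394 in the RBPJ knockdown. Both NOTCH1 knockdown libraries were above the other 4, among which replicate 2 of the control was the lowest. The log2 fold change in the NOTCH1 knockdown was 0.62 ± 0.20 (SE; limma, unadjusted p = 0.00984, adjusted p = 0.51). It was 0.26 without replicate 2 of the control and 0.99 without replicate 1. Between the knockdowns it was 0.48 ± 0.20 (SE; limma, unadjusted p = 0.0373, adjusted p = 0.999). LDHB, the subunit of oxidative tissue, had 3353 and 2677, then 3231 and 2952, then 3381 and 2889, with overlapping groups and a 95% interval in the NOTCH1 knockdown of -0.23 to 0.32 on the log2 scale.

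Pyruvate dehydrogenase acts on pyruvate inside the mitochondrion, and PDK kinases switch it off. PDHA1, its catalytic alpha subunit, had 3395 and 3352 in the control, 3533 and 3488 in the NOTCH1 knockdown and 3372 and 3214 in the RBPJ knockdown, where the NOTCH1 knockdown lay above both other groups as deposited but its sign against the control changed among the scalings. PDHB, the beta subunit, had 2745 and 2656, then 3079 and 2541, then 2413 and 2445, lower in both RBPJ knockdown libraries than in any other. PDK1 had 196 and 168, then 165 and 157, then 165 and 170.3, and PDK3 had 415 and 458, then 374 and 452, then 438 and 513. Values of PDK1 were lower in both NOTCH1 knockdown libraries than in the controls, and those of PDK3 overlapped.

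HIF1A, the oxygen-regulated transcription factor that activates many glycolytic genes, had 423 and 425 in the control, 364 and 338 in the NOTCH1 knockdown and 426 and 363 in the RBPJ knockdown. Both NOTCH1 knockdown libraries were below both control libraries, while the RBPJ knockdown had 1 library at the control's level and 1 below it. HIF1A is regulated mainly through the stability of its protein, which RNA values do not show. The 95% interval in the NOTCH1 knockdown was -0.59 to 0.05 on the log2 scale.

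The pentose phosphate enzymes overlapped between nearly all groups. PGD, which releases carbon dioxide and NADPH, had 4676 and 4219 in the control, 5204 and 4292 in the NOTCH1 knockdown and 4859 and 4155 in the RBPJ knockdown. TKT, transketolase, had 13955 and 16505, then 14908 and 16118, then 14709.6 and 15242, and TALDO1, transaldolase, had 6048 and 6348, then 5537 and 5828, then 5301 and 6500.4. Only TALDO1 in the NOTCH1 knockdown, where both libraries were below the controls, did not overlap. The 95% intervals in the NOTCH1 knockdown were -0.17 to 0.35 for PGD, -0.20 to 0.26 for TKT and -0.37 to 0.12 for TALDO1 on the log2 scale.

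**Figure D3:**
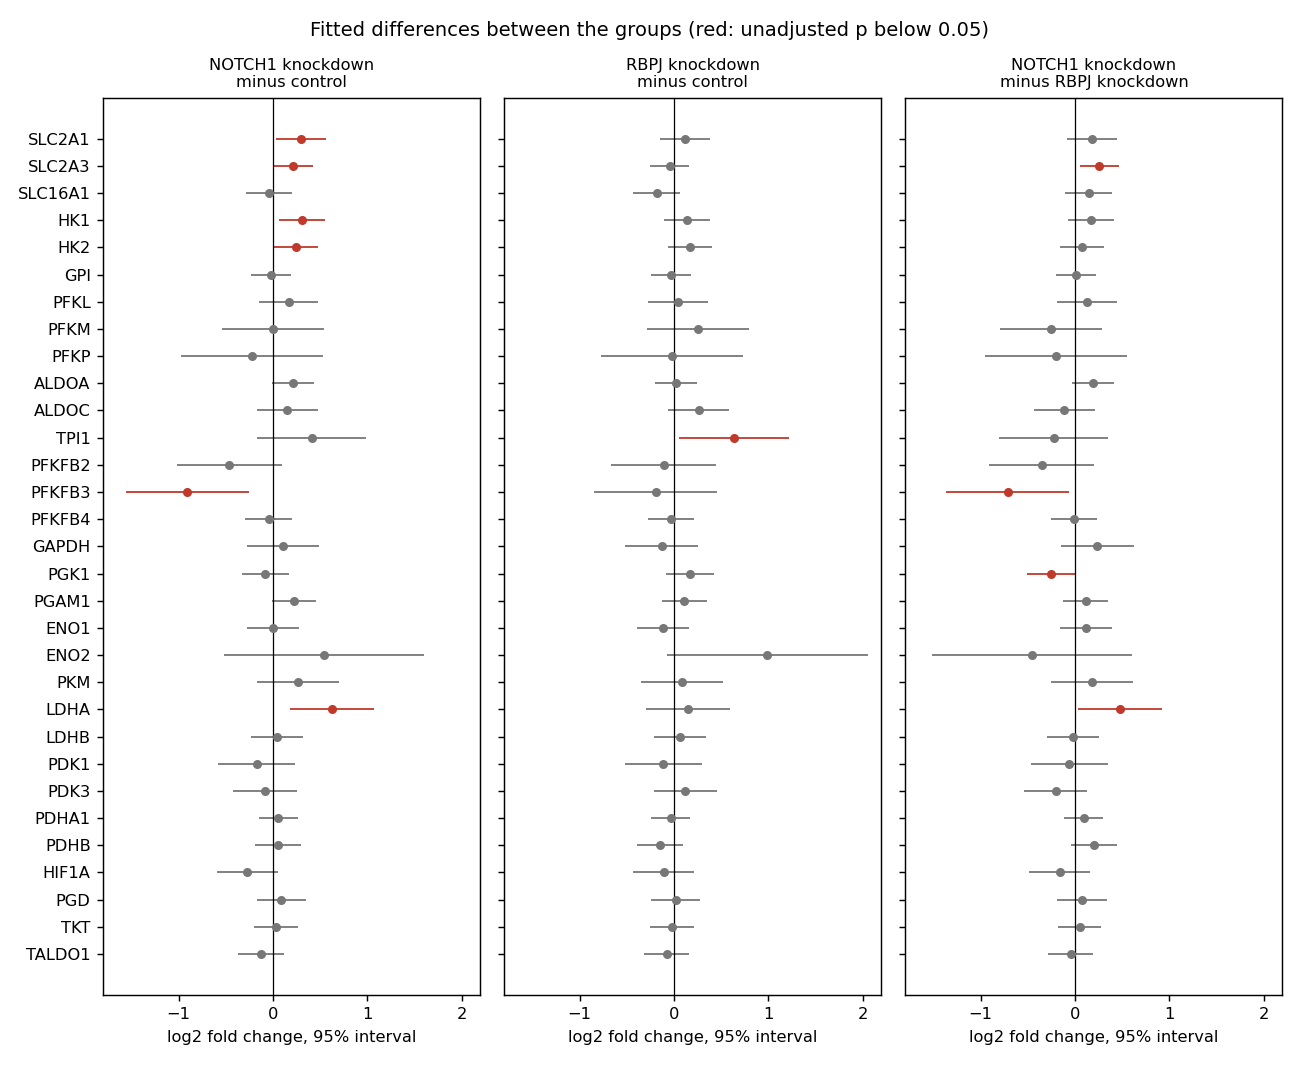
Fitted log2 fold change (points) and 95% interval (bars) of the 31 genes in the 3 comparisons, from limma over all 6 libraries. Red marks an unadjusted p below 0.05, which 6, 1 and 4 genes had, and no gene passed after adjustment over all 12070 genes tested.

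Counted by libraries, 11 of the 31 genes were higher and 5 lower without overlap in the NOTCH1 knockdown than in the control, against 18.6% and 17.2% of all genes. In the RBPJ knockdown 4 were higher and 4 lower, against 15.3% and 16.8%. Between the knockdowns 6 were higher and 4 lower in the NOTCH1 knockdown, against 17.5% and 15.5%. The 11 were SLC2A1, SLC2A3, HK1, HK2, ALDOA, ALDOC, TPI1, PGAM1, ENO2, LDHA and PDHA1 (its sign changed among the scalings), and the 5 were PFKFB2, PFKFB3, PDK1, HIF1A and TALDO1. HK1, HK2, TPI1 and ENO2 were the 4 higher in the RBPJ knockdown, and SLC2A3, SLC16A1, PFKFB3 and PDHB the 4 lower. Both knockdowns were compared with the same control libraries, so these lists are not independent of each other.

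Under the settings that follow, the share of all genes at an unadjusted p below 0.05 is not given. Whether a change in the count was particular to the glycolysis and related genes or shared by all genes was not tested. The count of these glycolysis and related genes at an unadjusted p below 0.05 varied with the library left out and with the fit. Without the variance trend it was 1 in place of 6 in the NOTCH1 knockdown, 2 in place of 1 in the RBPJ knockdown and 1 in place of 4 between the knockdowns, and after quantile normalization it was 3 in the NOTCH1 knockdown. By library, in the NOTCH1 knockdown it was 1 in place of 6 without replicate 1 of that group, and 4 to 8 without each of the other 5. In the RBPJ knockdown it was 3 in place of 1 without either control library or replicate 1 of that group, and 0 without its replicate 2. Between the knockdowns it was 1 in place of 4 without replicate 1 of the NOTCH1 knockdown or replicate 1 of the RBPJ knockdown, and 0 without replicate 2 of the RBPJ knockdown. The precision followed the level: for the 19 genes with a mean of 1000 or more the standard error was 0.10 to 0.20, for the 8 with a mean of 100 to 1000 it was 0.15 to 0.26, and for the 4 below (PFKP, TPI1, PFKFB3 and ENO2) 0.27 to 0.49. A 95% interval thus reached 1.15-fold to 1.35-fold to either side in the first group and 1.49-fold to 2.09-fold in the last.

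Ratios of paralogues within a library do not depend on its scaling. LDHA over LDHB was 0.140 and 0.106 in the control, 0.187 and 0.177 in the NOTCH1 knockdown and 0.123 and 0.136 in the RBPJ knockdown, higher in both NOTCH1 knockdown libraries than in the other 4. SLC2A1 over SLC2A3 was 0.171 and 0.192, then 0.215 and 0.170, then 0.218 and 0.188, and HK1 over HK2 was 0.297 and 0.254, then 0.310 and 0.265, then 0.248 and 0.290. Both of these overlapped between all groups.

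PFKP made up 6.44 and 9.44 percent of the phosphofructokinase counts in the control, 4.41 and 8.51 percent in the NOTCH1 knockdown and 5.77 and 9.36 percent in the RBPJ knockdown, with replicate 2 the higher in each group. ALDOA over ALDOC was 8.89 and 8.23, then 9.33 and 8.51, then 8.95 and 5.86, where replicate 2 of the RBPJ knockdown stood apart. PDK1 over PDK3 was 0.471 and 0.366, then 0.441 and 0.347, then 0.376 and 0.332, with replicate 1 the higher in each group. ENO1 over ENO2 was 58.0 and 115, then 63.3 and 47.6, then 46.5 and 28.6, lowest in replicate 2 of the RBPJ knockdown and highest in replicate 2 of the control, where ENO2 itself was highest and lowest. SLC16A1 over SLC16A3 is not read because SLC16A3 was near 0 in 1 control library.

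**Figure D4:**
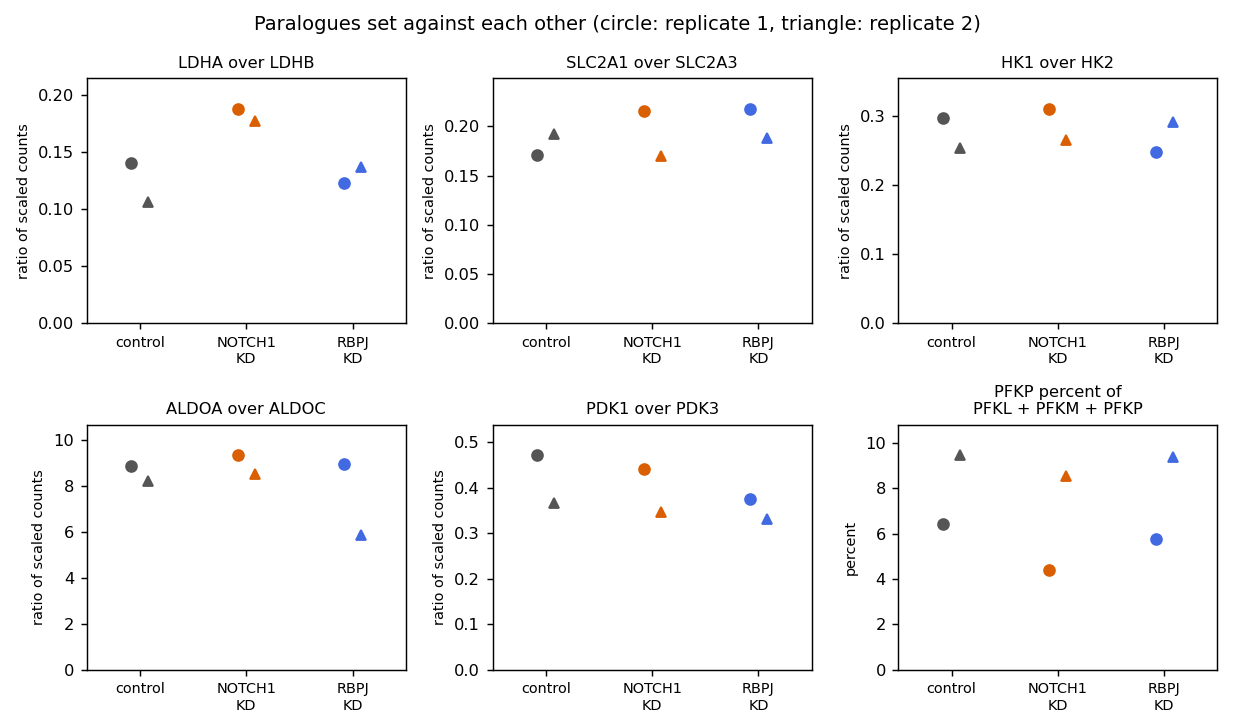
Ratios of the scaled counts of paralogues per library, on linear axes from 0 (percent for PFKP). Circles are replicate 1 and triangles replicate 2. LDHA over LDHB is 0.187 and 0.177 in the NOTCH1 knockdown and 0.106 to 0.140 in the other 4 libraries, and in the other 5 panels the NOTCH1 knockdown overlaps the control.

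Replicate 1 of the NOTCH1 knockdown had the highest of the 6 values for 11 of the 31 genes, against 20.1% of all genes. Replicate 1 was above replicate 2 in all 3 groups for 8 of the 31 genes, against 19.5% of all genes, and below it in all 3 for 6, against 18.2%. The 8 were SLC16A1, GAPDH, PGAM1, PKM, LDHA, LDHB, PDHA1 and PGD. The 6 were GPI, PFKP, PFKFB3, PDK3, TKT and TALDO1. For PKM the difference between replicates was 0.29, 0.66 and 0.50 on the log2 scale in the control, the NOTCH1 knockdown and the RBPJ knockdown, and for GAPDH 0.51, 0.29 and 0.47. PFKP had -0.58, -0.68 and -0.74. Of the 8 morula markers, KRT8, KRT18 and GATA3 were also higher in replicate 1 of each group. KRT8 and KRT18 are keratins of the outer cells, and GATA3 is an outer-cell transcription factor. The other 5 markers, CDX2 of the outer cells and TEAD4 among them, were not higher in replicate 1 of each group. KRT8 stood at 11997 and 10629.9, then 15897 and 12502, then 16107 and 7578 and KRT18 at 9355 and 6298, then 11454 and 8816, then 10168 and 5878 in the control, the NOTCH1 knockdown and the RBPJ knockdown. The part of these markers in the difference of these enzymes was not tested. The median absolute difference between replicates of the 31 genes was 0.18, 0.16 and 0.16 in the 3 groups, against 0.22, 0.17 and 0.18 over all genes.

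**Figure D5:**
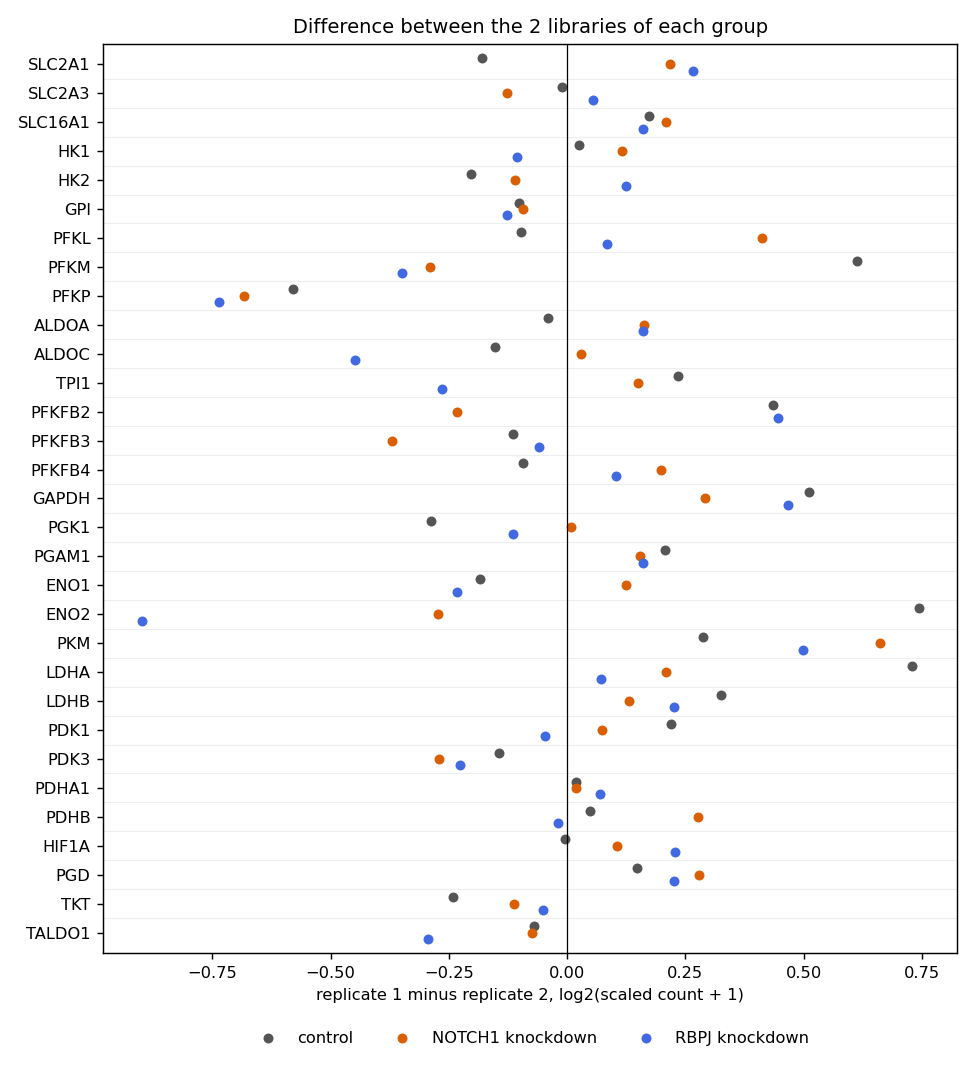
Difference between replicate 1 and replicate 2 of each group in log2(scaled count + 1), for the 31 tested genes in the control (grey), NOTCH1 knockdown (orange) and RBPJ knockdown (blue). The 3 points of GAPDH, PKM and LDHA lie right of 0, and those of PFKP, PFKFB3 and TKT left of 0.

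Other genes of sugar metabolism were read from lists of related genes, of which none passed limma after adjustment in any comparison. Their counts at an unadjusted p below 0.05 stand against 4.57% of all genes higher and 2.73% lower in the NOTCH1 knockdown, and 2.83% higher and 1.52% lower in the RBPJ knockdown. Of 11 tested further pentose phosphate and nucleotide sugar genes, 2 were higher and 1 lower at an unadjusted p below 0.05 in the NOTCH1 knockdown. H6PD, the pentose phosphate dehydrogenase of the endoplasmic reticulum, had 172 and 204 in the control, 354 and 257 in the NOTCH1 knockdown and 214 and 174 in the RBPJ knockdown (limma log2 fold change 0.68 in the NOTCH1 knockdown, adjusted p = 0.466). TKTL1, a transketolase relative, had 921 and 876, then 658 and 692, then 971 and 801 (limma log2 fold change -0.41, adjusted p = 0.486). In both genes the NOTCH1 knockdown libraries lay apart from the other 4, above them for H6PD and below them for TKTL1.

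Of 10 tested further genes of pyruvate use, 2 were higher and 1 lower at an unadjusted p below 0.05 in the NOTCH1 knockdown. DLAT, the acetyltransferase subunit of pyruvate dehydrogenase, had 481 and 439.9 in the control, 593 and 608 in the NOTCH1 knockdown and 483 and 438 in the RBPJ knockdown, and both NOTCH1 knockdown libraries exceeded the other 4 (limma log2 fold change 0.38, adjusted p = 0.557). MPC1, a subunit of the mitochondrial pyruvate carrier, had 332 and 302, then 463 and 387, then 402 and 319 (limma log2 fold change 0.42, adjusted p = 0.626), and its partner MPC2 had 358 and 325, then 354 and 338, then 273 and 312. The lower gene was PDHX, another component of pyruvate dehydrogenase, named after its values were seen. It had 512 and 550.2, then 419.7 and 413, then 442 and 519.8, below the other 4 libraries in the NOTCH1 knockdown (limma log2 fold change -0.35, adjusted p = 0.63). In the RBPJ knockdown 1 gene of this list was higher at an unadjusted p below 0.05. It was PDPR, a regulator of pyruvate dehydrogenase phosphatase, which had 107 and 127, then 153 and 136, then 191 and 170.3, a log2 fold change of 0.63. PDP2, next in order of p, had a log2 fold change of 0.19 at an unadjusted limma p of 0.139.

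Among 8 further transporters 1 was lower at an unadjusted p below 0.05 in the NOTCH1 knockdown. SLC2A4 (GLUT4), the insulin-responsive carrier, had 184 and 170.3 in the control, 107 and 137 in the NOTCH1 knockdown and 142 and 143 in the RBPJ knockdown, lower in all 4 knockdown libraries. SLC5A1, a sodium-coupled glucose carrier, had 22.7 and 23.5, then 24.2 and 54.3, then 35.7 and 35.5. Between the knockdowns BSG, the chaperone of monocarboxylate transporters, and SLC2A5, a fructose carrier, had the smallest p, with log2 fold changes of 0.18 and 0.69. SLC2A5 had 1785 and 1778, then 3262 and 1654, then 2441 and 853, with replicate 1 far above replicate 2 in both knockdowns. Of 13 further glycolysis genes none reached an unadjusted p of 0.05 in either knockdown. ENO3 had 68.1 and 84.5, then 108 and 109, then 90.5 and 78.0, PGM1 had log2 fold changes of 0.23 and 0.25 in the NOTCH1 and RBPJ knockdowns, and TIGAR, a fructose 2,6-bisphosphatase, had one of -0.31 in the RBPJ knockdown.

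Among gluconeogenesis and glycogen genes (12 tested) FBP2 was a transcript of few counts, with 1.06 and 10.7 in the control, 11.3 and 18.4 in the NOTCH1 knockdown and 17.8 and 13.2 in the RBPJ knockdown. It reached the minimum mean only through the knockdown groups, so its test is not read, and no other gene of the list reached an unadjusted p of 0.05. Of 6 hexosamine genes none reached it in a knockdown against the control, and OGT, which attaches N-acetylglucosamine to proteins, had a log2 fold change of -0.23 in the NOTCH1 knockdown. Among 17 genes of oxygen sensing and hypoxia response 1 was higher and 1 lower at an unadjusted p below 0.05 in the NOTCH1 knockdown, and 13 of 17 were lower by sign with a median of -0.11, where 51.1% of all genes were higher with a median of 0.01. In the RBPJ knockdown 10 of 17 were higher with a median of 0.02. The list joins genes that sense oxygen with genes that respond to hypoxia, so its sign count is not a reading of the response. EPAS1, the relative of HIF1A, had 111 and 108 in the control, 41.3 and 78.6 in the NOTCH1 knockdown and 154 and 134 in the RBPJ knockdown, so that the NOTCH1 knockdown was below both other groups. Its log2 fold change was -0.93 against the control (limma, adjusted p = 0.486) and -1.32 against the RBPJ knockdown (limma, adjusted p = 0.708). ADM, a peptide hormone induced by hypoxia, had 290.0 and 212, then 309 and 387, then 279 and 245.

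Of 16 tested regulators of sugar metabolism, 5 were higher and 1 lower at an unadjusted p below 0.05 in the NOTCH1 knockdown. LIN28A, an RNA-binding protein of pluripotent cells, and MLXIPL (ChREBP), a glucose-responsive transcription factor, had the smallest p. MLXIPL had 85.5 and 112 in the control, 225 and 165 in the NOTCH1 knockdown and 139 and 98.4 in the RBPJ knockdown, a log2 fold change of 0.97 in the NOTCH1 knockdown (limma, adjusted p = 0.431). LIN28A had 544 and 466, then 812 and 719, then 741 and 618, higher in all 4 knockdown libraries than in the controls. MYC, an activator of glycolytic genes in many cell types, was the 1 lower and separated the knockdowns: its log2 fold change between them was -1.13 (limma, adjusted p = 0.823), with 61.2 and 46.5 in the NOTCH1 knockdown and 137 and 102 in the RBPJ knockdown. MYCN, a relative of MYC, was among the 5 higher in the NOTCH1 knockdown, with 585 and 801, then 792 and 981, then 734 and 759 (limma log2 fold change 0.36, adjusted p = 0.66), though its groups overlapped. AKT2 and AKT1 were also among the 5, with log2 fold changes of 0.30 and 0.25 in the NOTCH1 knockdown. TXNIP, which restrains glucose uptake, had 181 and 183, then 140.0 and 154, then 188 and 208, again lowest in the NOTCH1 knockdown. Its limma p there was 0.122 unadjusted and 0.766 adjusted. ARRDC4, on the same list, went the other way, with 193 and 198, then 214 and 210, then 227 and 269. MYCN, AKT1, AKT2, TXNIP and ARRDC4 were named after their values were seen.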

How the data were processed

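RNA was measured in 6 pools of embryos, 2 per group. The authors deposited 1 table of signal values per gene, scaled counts with no raw counts beside them. Per the submitters' processing notes, which give no role or order, the tools were DESeq2 and Salmon 0.14.1 and the genome ARS-UCD1.2. Library totals differed by little, and 80.2% to 82.3% of low values lay within 0.1 of a whole step per library, too few to recover whole reads, so no count model was fitted and the depth is approximate. Of 17922 rows, 2551 had no gene name (6.20% to 7.22% of the totals) and stayed out; for 57 repeated symbols the row with the higher mean was kept.

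Values were tested as log2(value + 1) without further scaling, for genes with a mean of at least 10, with limma 3.58.1 in R 4.3.3 (all 6 libraries, 3 residual degrees of freedom, trended variance, Benjamini-Hochberg adjustment over 12070 genes, threshold 0.05). A fold change on this scale understates the change of low genes. The scripts were tested on simulated data; figures used Python 3.11.15 and matplotlib 3.10.9. Values are given for all 32 genes in every library, and fold changes with p for the 5 genes of smallest p per comparison; of each further list the 2 genes of smallest p are named where they bear on the text, and 1 result is not reported here. The members and lists were chosen with earlier results of these data known. The labels do not say whether replicates came from separate collections, so the spread behind each p-value is that of these libraries and is possibly technical. Alternatives covered the pseudocount, filter, scaling, variance model, threshold, replicate number and omitted libraries.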

Additional observations from a re-analysis of the deposited data

How the results depend on the processing

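Alternatives were run for 15 log2 fold changes, those of the 5 genes of smallest p in each comparison among the 31. The fold changes of the targeted genes and of the further lists were not recomputed. The 15 kept their direction under all alternatives run, and 250 of 251 recomputed values stayed on their side of the threshold. The exception was LDHA in the NOTCH1 knockdown with the replicate number as a block (0.62, limma adjusted p = 0.0430); without the block the smallest adjusted p was 0.215. The labels do not say what a replicate number shares. Across genes, the difference between replicates correlated between groups at r = 0.167 (control and NOTCH1 knockdown), 0.203 (control and RBPJ knockdown) and 0.213 (both knockdowns), a hint from the data and not the design. With the replicate block limma called 138 genes in place of 0 in the NOTCH1 knockdown, 12 in place of 1 in the RBPJ knockdown, 15 in place of 1 between the knockdowns and 88 in place of 1 among the 3 groups. Of the 31 genes it called 1, 0, 0 and 0, and 9, 3 and 7 lay below an unadjusted p of 0.05 in the 3 comparisons, as did 1474, 1038 and 877 of all 12070 genes. Without the variance trend 0 genes were called where 1 had been, in the RBPJ knockdown, between the knockdowns and among the 3 groups.

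The median log2 fold change of the 31 genes in the NOTCH1 knockdown was 0.0043 with equal totals, where that of all genes was -0.041. As deposited these medians were 0.051 and 0.0059. After quantile normalization the median of the 31 genes was -0.0038, against -0.0069 over all genes. Between the knockdowns it was then -0.024, against 0.0015 over all genes. Over omitted libraries the median ran from 0.027 to 0.11 in the NOTCH1 knockdown, from -0.023 to 0.082 in the RBPJ knockdown and from -0.010 to 0.050 between the knockdowns. Genes called ran from 0 to 1 in the NOTCH1 knockdown (1 without replicate 2 of the control), from 1 to 3 in the RBPJ knockdown (3 without replicate 2 of the control), from 0 to 3 between the knockdowns (0 without replicate 1 of the NOTCH1 knockdown, 3 without replicate 1 of the RBPJ knockdown) and from 1 to 3 among the 3 groups (3 without replicate 2 of the NOTCH1 knockdown, 2 without replicate 2 of the control or replicate 1 of the RBPJ knockdown). A group left with 1 library is assumed to vary like the others. The cause of these shifts was not tested. With 2 libraries per group, differences smaller than the intervals given for each level could not be told from no difference. Those intervals hold for a single gene, and larger differences also missed the threshold after adjustment. An example was LDHA in the NOTCH1 knockdown, at 0.62 with a 95% interval of 0.18 to 1.07 (limma without the block, adjusted p = 0.51).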
